A study of Mus musculus with 128 samples.

Results

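Imprinted genes are transcribed mainly from the copy inherited from one parent. A list of 42 such genes, matched by symbol, was followed here through a table of 41300 genes measured in single mouse oocytes and early embryos. Of the 42 members, 26 are known in the mouse as expressed from the paternal copy and 15 from the maternal copy, and Gnas, which codes for the stimulatory G-protein alpha subunit, is expressed from either copy depending on the transcript. The members were chosen by name, with earlier results of these data known.

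The samples were mature unfertilized eggs (MII oocytes) and whole embryos of 2, 4 and 8 cells, sampled at 1.5, 2.5 and 3.5 days post fertilization, all of strain C57BL/6. Each stage had 16 libraries labelled wildtype (m+/p-) and 16 labelled Kdm4a knockout (m-/p-), and each library came from 1 oocyte or 1 embryo. Every embryo, wildtype or knockout, had been fathered by Kdm4a-knockout sperm, so wildtype embryos could inherit a working Kdm4a copy only from the mother. Kdm4a is a histone demethylase that removes methyl groups from lysines of histone H3. The comparison asks what its loss from the mother does to the transcripts of the oocyte and embryo. Knockout embryos (m-/p-) had no working copy from either parent. In embryos, loss of the egg's Kdm4a product and loss of the embryo's own copy therefore cannot be told apart. The mothers are not named in the labels, so a p-value below measures the spread between these oocytes or embryos and not between mothers. All libraries came from 1 strain, so the counts are the sum of both parental copies and cannot show which copy was read.

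A parental mark tells the copies apart. At most of these genes it is DNA methylation of a control region, set in the egg or the sperm and kept through the cleavage divisions with the help of the zinc-finger protein ZFP57 and its partner TRIM28. At a smaller set, among them Sfmbt2, Jade1 and Gab1, the maternal copy is silenced by histone methylation laid down in the oocyte, which is called non-canonical imprinting. An oocyte holds maternal copies alone, and its stored RNA is replaced by new transcripts from the 2-cell stage onward, so a gene that is silent on the maternal copy can still be abundant in the egg.

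Libraries held 528377 to 4657857 counts (median 2130015), and 127 of 128 were used. Knockout 8-cell replicate 4 was left out because it held 419 counts. Levels are CPM, the counts of a gene scaled to a common library total. Kdm4a itself had a median of 10.8 in wildtype and 1.15 in knockout oocytes and of 16.5 and 2.26 in 2-cell embryos. The wildtype level was low later, with medians of 3.36 and 1.36 at the 4-cell stage and 1.59 and 1.08 at the 8-cell stage. The 8 oocyte markers (among them Gdf9, Zp3 and Mos) were detected in every group and summed to medians of 11595 CPM in wildtype oocytes and 53.0 CPM in wildtype 8-cell embryos. Of 9 cumulus and granulosa markers 5 were detected in each oocyte group, and the list summed to medians of 92.1 CPM in wildtype and 99.6 CPM in knockout oocytes. In wildtype and knockout 2-cell embryos 7 and 8 were detected, with medians of 32.2 and 36.8 CPM. The medians of the 4-cell and 8-cell groups were 0 to 1.78 CPM. Amh was at 0 in every group, and the sum of the list did not exceed 119.95 CPM in any library.

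3 libraries stood apart, and results that rest on them are given with and without them. Knockout oocyte replicate 15 had 2685 CPM of oocyte markers, against 11689 to 15920 CPM in the other knockout oocytes. Its Mest level of 64.7 CPM and its Ube3a level of 36.4 CPM were the lowest of that group, and its Snrpn level of 65.9 CPM was the highest. Knockout 8-cell replicate 7 had 3053 CPM of oocyte markers, listed Mcts2, Sgce, H13 and Zdbf2 at 0, and held 59.2 CPM of Mest and 11.5 CPM of Zim1, the highest of its group. Knockout 2-cell replicate 13 was the shallowest library in use.

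The stretches before the start sites of 6 members are shown because these paternally expressed genes differed between genotypes in the 2-cell or 4-cell embryo, and because the hexamer TGCCGC, the core of the motif bound by ZFP57, marks many imprinted control regions. They are mouse sequences from RefSeq on GRCm38.p6, written 5′ to 3′ in the direction of transcription, with the hexamer on either strand (GCGGCA on the other strand) in capitals. Snhg14 and 1 of the 4 Snrpn starts in RefSeq share the same window, which lies upstream of both genes as the deposited table places them.
Snrpn and Snhg14, shared upstream start, chr7:60450178-60450427, minus strand: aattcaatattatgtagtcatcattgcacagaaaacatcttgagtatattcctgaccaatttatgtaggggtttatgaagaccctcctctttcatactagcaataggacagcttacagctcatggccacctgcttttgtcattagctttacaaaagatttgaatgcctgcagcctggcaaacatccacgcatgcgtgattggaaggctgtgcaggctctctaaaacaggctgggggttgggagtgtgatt
Snrpn, downstream start, chr7:60005196-60005449, minus strand: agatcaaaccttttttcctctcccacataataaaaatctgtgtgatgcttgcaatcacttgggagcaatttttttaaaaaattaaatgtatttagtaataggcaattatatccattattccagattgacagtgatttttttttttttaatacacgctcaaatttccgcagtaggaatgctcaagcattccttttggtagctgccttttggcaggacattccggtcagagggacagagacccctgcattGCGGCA
Mest, chr6:30737800-30738049, plus strand: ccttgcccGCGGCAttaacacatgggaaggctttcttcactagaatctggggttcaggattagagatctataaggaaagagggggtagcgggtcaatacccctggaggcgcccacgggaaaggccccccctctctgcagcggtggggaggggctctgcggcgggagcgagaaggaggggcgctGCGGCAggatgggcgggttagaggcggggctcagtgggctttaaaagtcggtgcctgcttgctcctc
Mcts2, chr2:152686898-152687034, plus strand: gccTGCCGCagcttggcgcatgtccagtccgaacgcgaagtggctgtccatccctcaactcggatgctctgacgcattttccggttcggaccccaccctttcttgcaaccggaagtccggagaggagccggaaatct
Sfmbt2, chr2:10370201-10370450, plus strand: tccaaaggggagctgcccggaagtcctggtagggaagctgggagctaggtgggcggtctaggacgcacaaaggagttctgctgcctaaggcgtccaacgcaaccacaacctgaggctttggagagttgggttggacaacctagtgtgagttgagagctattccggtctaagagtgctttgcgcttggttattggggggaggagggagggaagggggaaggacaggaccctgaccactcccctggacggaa
Jade1, chr3:41555484-41555730, plus strand: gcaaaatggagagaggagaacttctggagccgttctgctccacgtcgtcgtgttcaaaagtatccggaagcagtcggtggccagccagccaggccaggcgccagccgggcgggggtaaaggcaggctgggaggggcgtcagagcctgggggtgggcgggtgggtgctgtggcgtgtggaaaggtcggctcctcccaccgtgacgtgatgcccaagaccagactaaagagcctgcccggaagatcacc
The hexamer was found 2 times before this Mest start and 1 time before Mcts2, and 1 time at the downstream Snrpn start, where it runs across the start site. It was not found in the printed stretches of the shared upstream start, Sfmbt2 or Jade1. RefSeq windows of Mest and Snrpn that are not printed lacked it as well. These windows began at chr6:30733256 for Mest and at chr7:60047929 and chr7:60140176 for Snrpn. RefSeq windows of 300 bases, from 250 before to 50 after a start, were matched for 37 of the 42 members. The hexamer was in 12 of their 56 windows (21.4%) and in 3813 of 32851 windows of all genes (11.6%). By class it was in 9 of 37 windows of paternally expressed members (24.3%) and in 3 of 15 windows of maternally expressed members (20%). Some paternal windows of 1 gene share bases. The Mest windows from chr6:30737800 and chr6:30737803 overlap, and both are counted. A match is a description of the letters and not evidence of binding.

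14 members, 9 paternally and 5 maternally expressed, had a group mean under 1 CPM in each of the 8 groups. They include the growth regulators Igf2, Dlk1 and H19 and the neuronal genes Ndn, Magel2, Mkrn3 and Peg12. Counts were high enough for a genotype test at 1 stage or more for 22 members, namely 15 paternally expressed, 6 maternally expressed and Gnas, and at all 4 stages for 8. The 20 members never tested were Airn, Ascl2, Meg3, Rian, Phlda2, Tssc4, Cd81, Rasgrf1, Nap1l5, Nnat, Peg10, Mkrn3, Ndn, Igf2, Mirg, Dlk1, H19, Peg12, Slc22a18 and Magel2. Airn, the noncoding antisense transcript of Igf2r, had the highest mean among them, at 3.70 CPM in knockout 2-cell embryos. A member passes the filter if enough libraries of 1 group express it, so the tested members are not a sample of all 42.

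**Figure D1:**
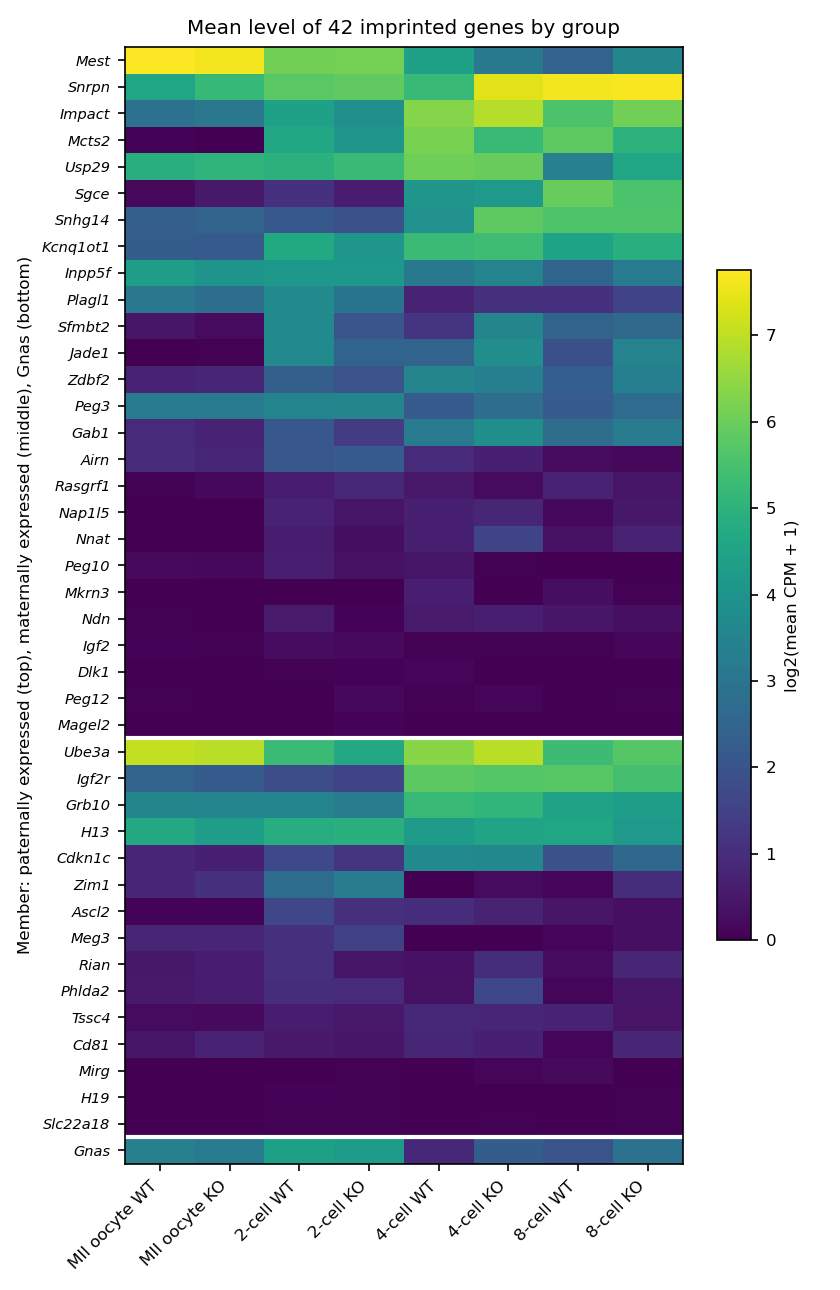
Mean level of each of the 42 imprinted genes (vertical axis, paternally expressed members at the top, then maternally expressed, then Gnas, each class ordered by its highest wildtype mean) in the 8 groups of stage and genotype (horizontal axis; WT wildtype, KO knockout), as the colour log2(mean CPM + 1). Mest and Ube3a were brightest in oocytes, Snrpn in knockout 4-cell and all 8-cell embryos, and the lower rows of each class were dark throughout.

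Levels of different genes are compared per kilobase of exon. In wildtype oocytes Mest, which codes for a hydrolase-like protein and is paternally expressed in the embryo, led the members with 77.3 CPM per kb (SD 15.05, n = 16). Ube3a, a ubiquitin ligase that is maternally expressed in neurons, followed with 11.95 CPM per kb (SD 1.62), and Snrpn, which codes for the splicing protein SmN, with 10.4 CPM per kb (SD 1.97). These last levels lay within 1 SD of each other. In wildtype 2-cell embryos Mcts2 (26.2, SD 13.5), Snrpn (24.7, SD 5.22) and Mest (24.3, SD 5.96 CPM per kb) were not separated beyond their spread. Mcts2 is a retrogene copied from Mcts1 and lies inside the maternally expressed gene H13. At the 4-cell stage Mcts2 led with 79.7 CPM per kb (SD 18.1), ahead of Impact, a regulator of translation, with 23.5 (SD 11.1). At the 8-cell stage Snrpn led with 89.5 CPM per kb (SD 24.7), then Mcts2 with 60.6 (SD 19.04) and Sgce, which codes for epsilon-sarcoglycan, with 32.7 (SD 11.8).

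From wildtype oocyte to 2-cell embryo, 6 of 18 tested members rose and 3 fell. A stage change was called where the adjusted p was under 0.05 and the level moved by 1 or more on the log2 scale. Of all 10240 genes 51.3% met this, 31.3% higher and 20.1% lower (60.9% of the calls were higher, and 75.6% on library totals). Of the 12 tested paternally expressed members 5 rose and 1 fell, and of the 5 maternally expressed members 1 rose and 2 fell. The class medians of log2 fold change were 0.53 and -0.53, beside 0.17 over all genes. That all-gene median was 0.33 with RLE factors and 0.63 on library totals, so the scale moves this median by more than the median itself.

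Jade1, Mcts2 and Sfmbt2 were near 0 in the egg and present in the 2-cell embryo. Jade1, a subunit of a histone acetyltransferase complex, was at 0 in all 16 wildtype oocytes, which allows up to 0.0590 CPM over the group (3 counts), and ran from 1.45 to 54.8 CPM (median 7.86) in wildtype 2-cell embryos. It was at least 199-fold higher in the embryo, an estimate that covers counting error only, as do the intervals that follow. Mcts2 had 3 counts in all wildtype oocytes together and 3.39 to 45.2 CPM (median 22.3) in 2-cell embryos, a ratio of 405 (interval 139 to 1966). Sfmbt2, a Polycomb-group protein, rose by 4.33 (SE 0.54) in log2 fold change to a median of 9.65 CPM. Kcnq1ot1, the long noncoding RNA that silences its own gene cluster, rose by 2.18 (SE 0.31), Zim1 by 2.34 (SE 0.46) and Impact by 1.20 (SE 0.25). The egg's abundant members fell in the same step. Mest fell by 2.12 (SE 0.14), from a median of 207 to 67.0 CPM, and Ube3a fell by 2.26 (SE 0.14), from 126 to 34.4 CPM. For both genes every wildtype 2-cell embryo lay below every wildtype oocyte. Igf2r, the receptor that clears insulin-like growth factor 2, fell by 1.28 (SE 0.42), a call lost on library totals (adjusted p = 0.0754).

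From wildtype 2-cell to 4-cell embryos, 8 of 22 tested members rose and 8 fell, against 74.7% of 10766 genes called, 31.3% higher and 43.4% lower. Among 15 paternally expressed members 5 rose and 6 fell, and among 6 maternally expressed members 3 rose and 1 fell. The class medians were 0.40 and 1.25, beside -0.43 over all genes (-0.76 with RLE factors and -0.20 on library totals). Igf2r rose by 4.17 (SE 0.39), from a median of 1.91 to 51.6 CPM, and Sgce by 3.54 (SE 0.45), from 0.733 to 16.1 CPM. Cdkn1c, an inhibitor of cyclin-dependent kinases, rose by 2.09 (SE 0.45), Snhg14 by 1.79 (SE 0.33), Impact by 1.73 (SE 0.28), Grb10, an adaptor that restrains growth-factor signalling, by 1.61 (SE 0.21), Mcts2 by 1.40 (SE 0.24) and Zdbf2 by 1.03 (SE 0.47). The Zdbf2 call was lost with RLE factors (adjusted p = 0.157).

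The largest fitted fall in this step was that of Zim1, a maternally expressed zinc-finger gene. Zim1 was at 0 in all 16 wildtype 4-cell embryos and at least 61.0-fold lower than its 2-cell mean of 5.64 CPM, with the limit again taken at 3 counts over the group. Gnas fell by 4.69 (SE 0.36), from a median of 21.6 to 0.859 CPM, and the growth-related zinc-finger gene Plagl1 fell by 4.19 (SE 0.67), with 14 of 16 wildtype 4-cell embryos at 0. Sfmbt2 fell by 3.45 (SE 0.73), with 11 of 16 at 0, and Jade1 fell by 1.56 (SE 0.52). Mest fell by a further 1.95 (SE 0.31), the zinc-finger gene Peg3 fell by 1.74 (SE 0.49), and the inositol phosphatase gene Inpp5f fell by 1.30 (SE 0.31).

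From wildtype 4-cell to 8-cell embryos, 5 of 20 tested members rose and 3 fell, against 20.6% of 8822 genes called, 9.33% higher and 11.3% lower (45.3% of the calls were higher, and 34.4% on library totals). Among 14 paternally expressed members 4 rose and 2 fell, and 1 of 5 maternally expressed members fell. The class medians were -0.46 and -0.68, beside -0.05 over all genes. Snrpn rose by 2.51 (SE 0.24), from a median of 29.2 to 203 CPM, and Snhg14, the long noncoding RNA that carries the snoRNAs of the Snrpn region and runs antisense to Ube3a, rose by 1.88 (SE 0.25), from 12.9 to 46.1 CPM. Sgce rose by 2.08 (SE 0.30) to a median of 56.5 CPM, Gnas by 1.80 (SE 0.43) to 2.49 CPM and Sfmbt2 by 1.99 (SE 0.78) to 3.67 CPM, a call lost on library totals (adjusted p = 0.0574). Usp29, which codes for a ubiquitin protease and starts beside Peg3, fell by 2.68 (SE 0.32), from a median of 53.5 to 7.31 CPM. Mest fell by 2.11 (SE 0.54) and Cdkn1c fell by 1.95 (SE 0.50). A whole embryo gives 1 library, so fewer cells expressing a gene and less of its RNA per cell cannot be told apart in any of these values.

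The same steps were fitted in the knockout. From oocyte to 2-cell embryo 5 of 18 tested members rose and 4 fell, where 49.3% of 10240 genes were called, 29.9% higher and 19.5% lower (60.5% of the calls were higher, and 75.7% on library totals). Mcts2, Jade1, Sfmbt2, Zim1 and Kcnq1ot1 rose, and Ube3a (-2.75, SE 0.15), Mest, Igf2r and Snhg14 (-1.20) fell. On library totals the falls of Igf2r (adjusted p = 0.055) and Snhg14 (0.054) were not called. From the 2-cell to the 4-cell embryo 13 of 22 rose and 5 fell, where 75% of 10766 genes were called, 33.2% higher and 41.8% lower. Among the 13 were Sgce (4.49, SE 0.49), Igf2r (4.39, SE 0.40), Snhg14 (4.09) and Gab1, an adaptor of growth-factor receptors (3.13), while Zim1 (-5.51), Mest, Plagl1, Gnas and Peg3 fell. The fall of Peg3 was not called on library totals (-0.84, adjusted p = 0.10), and with RLE factors the rises of Zdbf2, Sfmbt2, Jade1, Snrpn and Kcnq1ot1 were not called. From the 4-cell to the 8-cell embryo 1 of 20 rose and 2 fell, where 12% of 8822 genes were called, 8.1% higher and 3.88% lower (67.6% of the calls were higher, 50.1% on library totals and 49.2% without knockout 8-cell replicate 7). Sgce rose by 1.55 (SE 0.30), Usp29 fell by 1.32 (SE 0.31) and Ube3a fell by 1.14 (SE 0.25). Whether a step differed between genotypes is given by the interactions further on.

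In oocytes, 1 of 14 tested members differed between genotypes, where 12% of 7680 genes did (edgeR adjusted p under 0.05), 5.27% higher and 6.69% lower in the knockout. Snrpn ran from 11.97 to 31.9 CPM (median 22.8) in wildtype oocytes and from 20.3 to 65.9 CPM (median 32.9) in knockout oocytes. 13 of 16 knockout oocytes lay above the wildtype median, 8 of them above every wildtype oocyte. Its log2 fold change, knockout minus wildtype as throughout, was 0.69 (SE 0.15, adjusted p = 0.0023). Without knockout replicate 15 it was 0.57 (adjusted p = 0.0011). The call was lost in fits of replicates 1 to 8 alone (adjusted p = 0.083) and of 9 to 16 alone (adjusted p = 0.054).

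The other 13 tested members were not called in oocytes. Their log2 fold changes ran from -0.38 (H13) to 0.24 (Impact). Mest, the most abundant member, had a median of 207 CPM in wildtype and 198 CPM in knockout oocytes and a log2 fold change of -0.14 (SE 0.12, adjusted p = 0.53). The medians were -0.00 for 9 paternally and -0.18 for 4 maternally expressed members, beside 0.02 over all genes.

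In 2-cell embryos 3 of 16 tested members were lower in the knockout and none was higher, with 10% of 8728 genes lower, 7.3% higher and 17.3% called in either direction. Of the 3, 2 were non-canonically imprinted genes, Sfmbt2 and Jade1, and the third was Ube3a. Sfmbt2 ran from 0 to 24.7 CPM (median 9.65) in wildtype and from 0 to 9.17 CPM (median 2.04) in knockout embryos. All 16 knockout embryos lay below the wildtype median, although the ranges overlapped, and 15 wildtype against 3 knockout embryos passed 4.95 CPM, the level at which the filter counts a library. Its log2 fold change was -1.85 (SE 0.43, adjusted p = 0.0027). Replicates 1 to 8 gave -2.02, and replicates 9 to 16 gave -1.71, where the call was lost (adjusted p = 0.083).

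Jade1 ran from 1.45 to 54.8 CPM (median 7.86) in wildtype and from 0 to 15.7 CPM (median 3.41) in knockout 2-cell embryos. Of the 16 knockout embryos 13 lay below the wildtype median, and the ranges overlapped. The log2 fold change was -1.25 (SE 0.44, adjusted p = 0.045). The call was lost without knockout replicate 13 (adjusted p = 0.051), with voom weights (0.063), with no filter (0.092) and in replicates 9 to 16 (-0.56, adjusted p = 0.66).

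Ube3a ran from 16.95 to 63.3 CPM (median 34.4) in wildtype and from 13.4 to 36.8 CPM (median 26.1) in knockout 2-cell embryos. 13 knockout embryos of 16 lay below the wildtype median, and 9 wildtype embryos lay within the knockout range. The difference of -0.56 in log2 (SE 0.17, adjusted p = 0.020) was called. Replicates 1 to 8 gave -1.16, and replicates 9 to 16 gave -0.03 (adjusted p = 0.96).

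The median sum of the 2-cell markers was also lower in knockout 2-cell embryos, with overlapping ranges. All 6 markers (Zscan4c, Zscan4d, Zfp352, Tmem92, Tdpoz4 and Ubtfl1) were detected in both genotypes. Their sum was 698 to 3282 CPM (median 1604) in wildtype and 175 to 2312 CPM (median 784) in knockout embryos, and their part in the lower Sfmbt2, Jade1 and Ube3a was not tested. The median log2 fold change was -0.47 over 11 paternally expressed members and -0.02 over 4 maternally expressed members, beside -0.01 over all genes. Among members not called, Mcts2 had -0.60 (SE 0.28, adjusted p = 0.13), Kcnq1ot1 -0.61 (SE 0.35, adjusted p = 0.23), and Zim1 0.66 (SE 0.32, adjusted p = 0.15).

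In 4-cell embryos 4 of 17 tested members differed, against 16.4% of 7478 genes, 8.97% higher and 7.46% lower. All 4 were among the 12 tested paternally expressed members, with 2 higher and 2 lower in the knockout, and none of the 5 tested maternally expressed members was called. Of those 5, Ube3a was at an unadjusted p under 0.05 and was called with voom weights, and DESeq2 called 0. Snrpn ran from 4.14 to 71.3 CPM (median 29.2) in wildtype and from 82.4 to 256 CPM (median 162) in knockout embryos. Every one of the 16 knockout embryos lay above all 16 wildtype embryos. Snrpn had a log2 fold change of 2.21 (SE 0.28, adjusted p = 1.4e-06).

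Snhg14 ran from 4.28 to 24.5 CPM (median 12.9) in wildtype and from 19.9 to 126 CPM (median 54.9) in knockout 4-cell embryos. 15 of 16 knockout embryos lay above every wildtype embryo, and the last lay within the wildtype range. Snhg14 had a log2 fold change of 1.98 (SE 0.25, adjusted p = 1.4e-06). Snrpn and Snhg14 were called in all 10 alternatives tried, with log2 fold changes of 2.10 to 2.45 and 1.81 to 2.18. The knockout 4-cell values of Snrpn overlapped those of wildtype 8-cell embryos, which ran from 98.5 to 259 CPM, and the knockout 4-cell values of Snhg14 overlapped the wildtype 8-cell values of 18.6 to 85.8 CPM.

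Snrpn, at chr7:59982495-60140219 on the minus strand of mm10, shares exon bases with Snurf (216 bases) and with the unnamed gene RP24-177J9.4 (324 bases), and 84.3% of its values above 0 were not whole, as when a read is split between genes. Snurf, which codes for a small protein in the 5′ part of the Snrpn transcript, ran from 0.517 to 7.59 CPM in wildtype and from 6.63 to 22.6 CPM in knockout 4-cell embryos, with a log2 fold change of 2.03 (SE 0.30, adjusted p = 2.1e-05). With the 3 genes summed, an alternative chosen after seeing the data, the Snrpn value was 2.21 at the 4-cell stage and 0.66 in oocytes, and both were called. Snrpb, the close paralogue of Snrpn, was not called (-0.39, SE 0.16, adjusted p = 0.087).

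Ube3a lies at chr7:59228750-59311536 on the plus strand and shares 1803 exon bases with Snhg14 on the opposite strand. Whether counting used strand is not stated in the labels, so reads in those bases cannot be assigned to 1 of the 2 genes. Ube3a ran from 31.3 to 182 CPM (median 73.1) in wildtype and from 60.6 to 260 CPM (median 109) in knockout 4-cell embryos. 14 of 16 knockout embryos lay above the wildtype median, and the ranges overlapped. The log2 fold change of 0.57 (SE 0.23, adjusted p = 0.081) was not called.

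**Figure D2:**
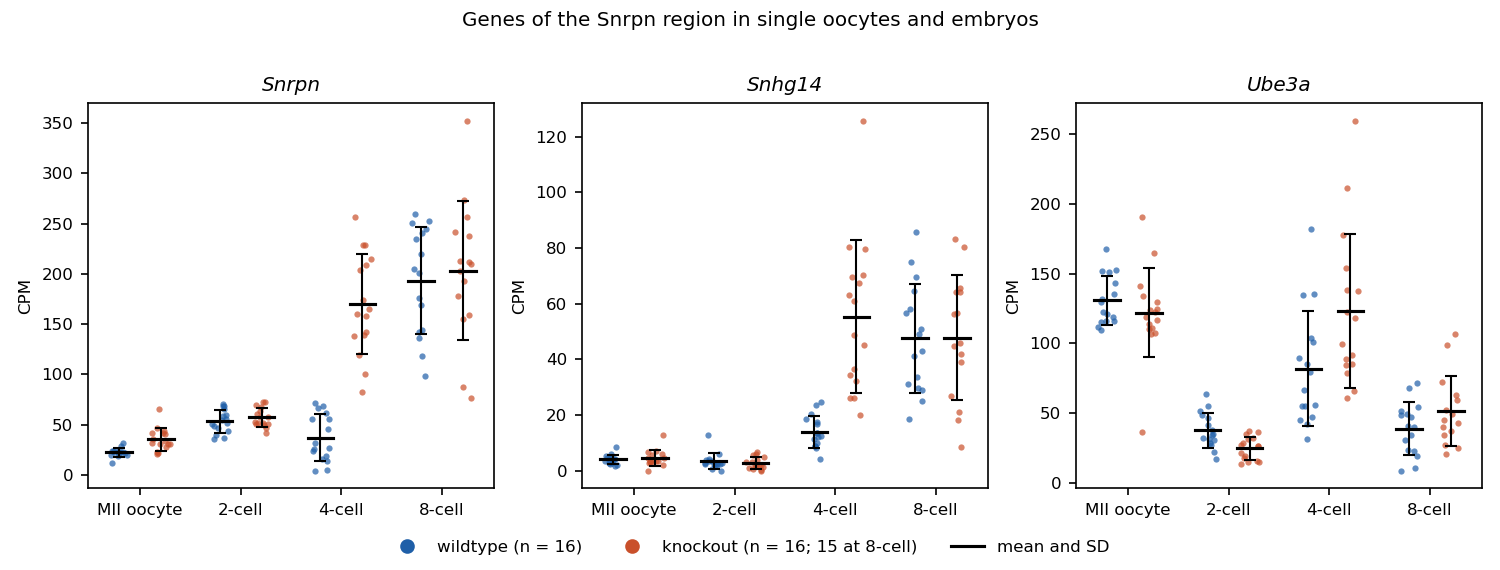
CPM (vertical axis, linear) of Snrpn, Snhg14 and Ube3a in each library, by stage and genotype; points are single oocytes or embryos and black bars are the mean and SD. At the 4-cell stage the knockout points of Snrpn (82.4 to 256) all lie above the wildtype points (4.14 to 71.3), and at the 8-cell stage the genotypes overlap.

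Mcts2 and Mest were lower in knockout 4-cell embryos. Mcts2 ran from 45.5 to 106 CPM (median 72.2) in wildtype and from 9.95 to 53.1 CPM (median 36.3) in knockout embryos. All 16 knockout embryos lay below the wildtype median, and 11 lay below every wildtype embryo. Mcts2 had a log2 fold change of -1.0 (SE 0.18, adjusted p = 0.0002). H13, whose intron holds Mcts2, had 0.27 (SE 0.23, adjusted p = 0.45), and Mcts1, the source of the retrogene, had 0.50 (SE 0.33, adjusted p = 0.32).

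Mest ran from 3.797 to 67.6 CPM (median 20.2) in wildtype and from 0 to 42.3 CPM (median 5.26) in knockout 4-cell embryos. 15 knockout embryos of 16 lay below the wildtype median. The log2 fold change was -1.47 (SE 0.45, adjusted p = 0.020), with -2.86 in replicates 1 to 8 and -0.45 in replicates 9 to 16 (adjusted p = 0.65). Mest shares 912 exon bases with Copg2, a coat-protein gene on the opposite strand, which had -0.15 (SE 0.53, adjusted p = 0.89).

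The median sum of the oocyte markers was higher in knockout than in wildtype 4-cell embryos, with overlapping ranges. All 8 were detected in both genotypes, and their sum was 45.1 to 236 CPM (median 98.5) in wildtype and 88.1 to 798 CPM (median 160) in knockout 4-cell embryos. The 6 markers of the 8-cell stage summed to 24.8 to 191 CPM (median 124) in wildtype and 53.6 to 177 CPM (median 103) in knockout embryos, with Cdx2 at 0 in the latter. Their part in the 4 differences was not tested. The median log2 fold change was 0.24 over 12 paternally and -0.08 over 5 maternally expressed members, beside -0.00 over all genes. Summed over the class, the 26 paternally expressed members held 384 ± 83 CPM (SD, n = 16) in wildtype and 571 ± 152 CPM in knockout embryos, and the 15 maternally expressed members 207 ± 48 and 247 ± 77 CPM. Within the paternal sums, the means of Snrpn were 36.9 and 170 CPM and those of Snhg14 14.1 and 55.4 CPM. At the other stages the paternal sums in wildtype and knockout were 318 and 308 CPM (oocytes), 302 and 264 CPM (2-cell) and 469 and 509 CPM (8-cell). Jade1 had 1.51 (SE 0.56, adjusted p = 0.061) and was called by DESeq2, and Igf2r had -0.11 (SE 0.19, adjusted p = 0.74).

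In 8-cell embryos 1 of 14 tested members was called, against 11.4% of 7219 genes, 8.69% higher and 2.76% lower. Of the all-gene calls 75.9% were higher, and 54.2% with DESeq2, 53.8% with voom weights and 56.1% without knockout replicate 7. Usp29 ran from 2.91 to 27.6 CPM (median 7.31) in wildtype and from 3.91 to 61.9 CPM (median 18.1) in knockout embryos. 12 of 15 knockout embryos lay above the wildtype median, 7 of them above every wildtype embryo. The log2 fold change was 1.32 (SE 0.35, adjusted p = 0.012), and 1.36 (adjusted p = 0.0077) without knockout replicate 7. The call was lost in replicates 1 to 8 (0.91, adjusted p = 0.33) and in replicates 9 to 16 (1.59, adjusted p = 0.10). Usp29 shares 2582 exon bases (32.3% of its length) with Zim3 on the opposite strand. Zim3 ran from 0.400 to 11.2 CPM in wildtype and from 2.23 to 30.3 CPM in knockout 8-cell embryos and was too low to be tested.

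Leaving out knockout 8-cell replicate 7 moved the number of called members from 1 of 14 tested to 3 of 16 tested. Over all genes 507 higher and 396 lower of 7301 were called in that fit. Jade1 was then tested and had 1.96 (SE 0.49, adjusted p = 0.0082), with medians of 1.88 CPM in wildtype and 8.72 CPM in the 14 remaining knockout embryos. Mcts2 had -0.73 (SE 0.21, adjusted p = 0.019), with medians of 53.3 and 27.9 CPM. With all 15 knockout embryos Mcts2 had -0.83 (SE 0.30, adjusted p = 0.062), and 12 of 15 lay below the wildtype median. Snrpn was not called at this stage (0.08, SE 0.17, adjusted p = 0.79), with medians of 203 CPM in wildtype and 210.0 CPM in knockout embryos, and neither was Snhg14 (-0.01, SE 0.24, adjusted p = 0.98). With all 15 knockout embryos, replicate 7 among them, the medians of log2 fold change were 0.29 for 10 paternally and -0.20 for 4 maternally expressed members. The median over all genes was 0.03. Class medians were not taken without replicate 7, where Jade1 and Zdbf2 (1.31, SE 0.46, adjusted p = 0.054), both paternally expressed, entered the edgeR fit.

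**Figure D3:**
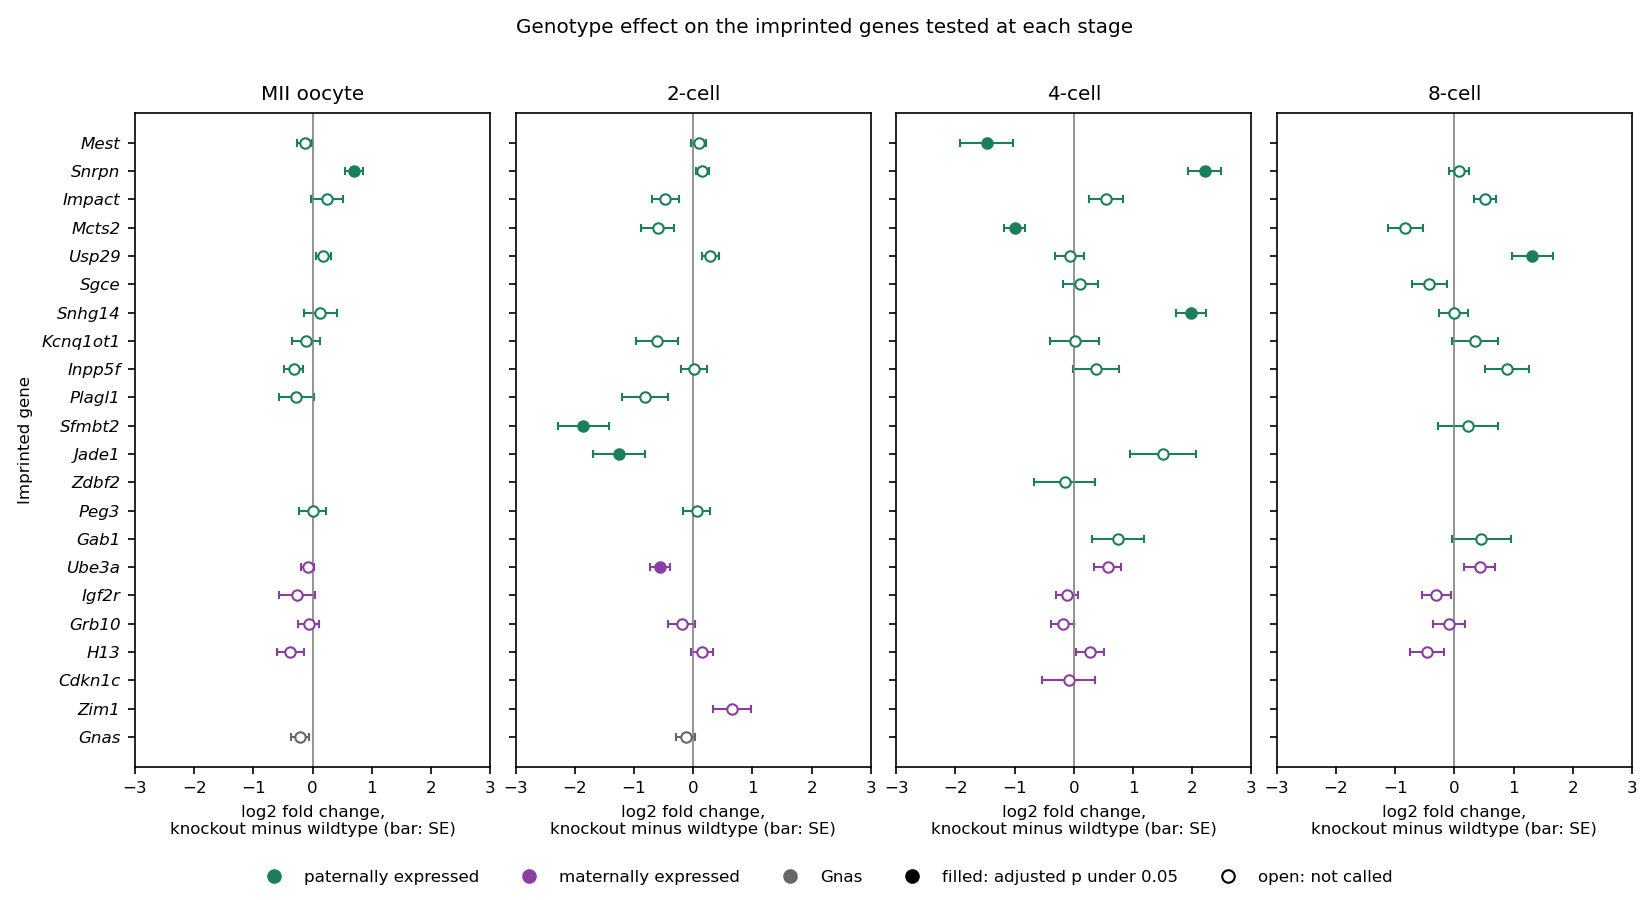
Log2 fold change (horizontal axis, knockout minus wildtype) with its SE for each imprinted gene tested at a stage (vertical axis), in oocytes and in embryos of 2, 4 and 8 cells; colour gives the parental class and filled points have an adjusted p under 0.05. At the 4-cell stage Snrpn (2.21) and Snhg14 (1.98) lie far to the right and Mest (-1.47) and Mcts2 (-1.0) to the left, while the maternally expressed members lie between -0.19 and 0.57.

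Whether the genotype effect itself changed from one stage to the next was tested as an interaction. From oocyte to 2-cell embryo 0 of 18 members were called, where 4.11% of 10240 genes were. Of the 18, 2 were at an unadjusted p under 0.05, and Ube3a was called (-0.57, adjusted p = 0.041) without knockout oocyte replicate 15 and knockout 2-cell replicate 13.

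From the 2-cell to the 4-cell embryo 7 of 22 members were called, 6 with a genotype effect that was more positive at the 4-cell stage and 1 with a more negative one, where 15.5% of 10766 genes were called, 11.4% more positive and 4.16% more negative. These were 5 of 15 paternally expressed members, 1 of 6 maternally expressed members and Gnas. Sfmbt2 had the largest value, 4.95 (SE 0.98, adjusted p = 0.00032). It fell in wildtype embryos and rose by 1.50 (SE 0.66) in knockout embryos, where the rise was lost with RLE factors (adjusted p = 0.11), and 6 of 16 knockout 4-cell embryos against 11 of 16 wildtype embryos were at 0. Jade1 likewise fell in wildtype embryos and rose by 1.18 (SE 0.52) in knockout embryos, a rise lost with RLE factors (adjusted p = 0.14), with an interaction of 2.74 (SE 0.73, adjusted p = 0.0069). Jade1 ran from 0 to 50.6 CPM (median 9.18) in knockout and from 0 to 11.7 CPM (median 4.31) in wildtype 4-cell embryos.

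Snhg14 had an interaction of 2.30 (SE 0.48) and Snrpn of 2.07 (SE 0.31). In wildtype embryos Snrpn had -0.78 (SE 0.22), under the size needed for a call, and in knockout embryos it rose by 1.29 (SE 0.22). With RLE factors the wildtype change was called (-1.12, adjusted p = 4.4e-06) and the knockout change, at 0.89, was under that size. Gnas, at 0 to 2.50 CPM (median 0.859) in wildtype and 0 to 12.1 CPM (median 2.73) in knockout 4-cell embryos, had an interaction of 2.21 (SE 0.46) and fell in both genotypes. Ube3a had 1.15 (SE 0.29), with a rise of 2.04 (SE 0.21) in the knockout and 0.89 (SE 0.20), under the size needed for a call, in the wildtype. Mest had -1.57 (SE 0.44), with a change of -3.51 (SE 0.34) in the knockout. The medians of this interaction were 0.95 over 15 paternally and 0.50 over 6 maternally expressed members, beside 0.20 over all genes.

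From the 4-cell to the 8-cell embryo 3 of 20 members were called, where 2.73% of 8822 genes were, and this test shares its 4-cell libraries with the one before. Snrpn had -2.15 (SE 0.33) and Snhg14 -2.01 (SE 0.35). Both rose in wildtype embryos, and in knockout embryos they had 0.36 (SE 0.23) and -0.14 (SE 0.25), neither of which was called. Mest had 2.99 (SE 0.75, adjusted p = 0.017), and 2.14 (adjusted p = 0.081) without knockout 8-cell replicate 7, the library with 59.2 CPM of Mest.

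**Figure D4:**
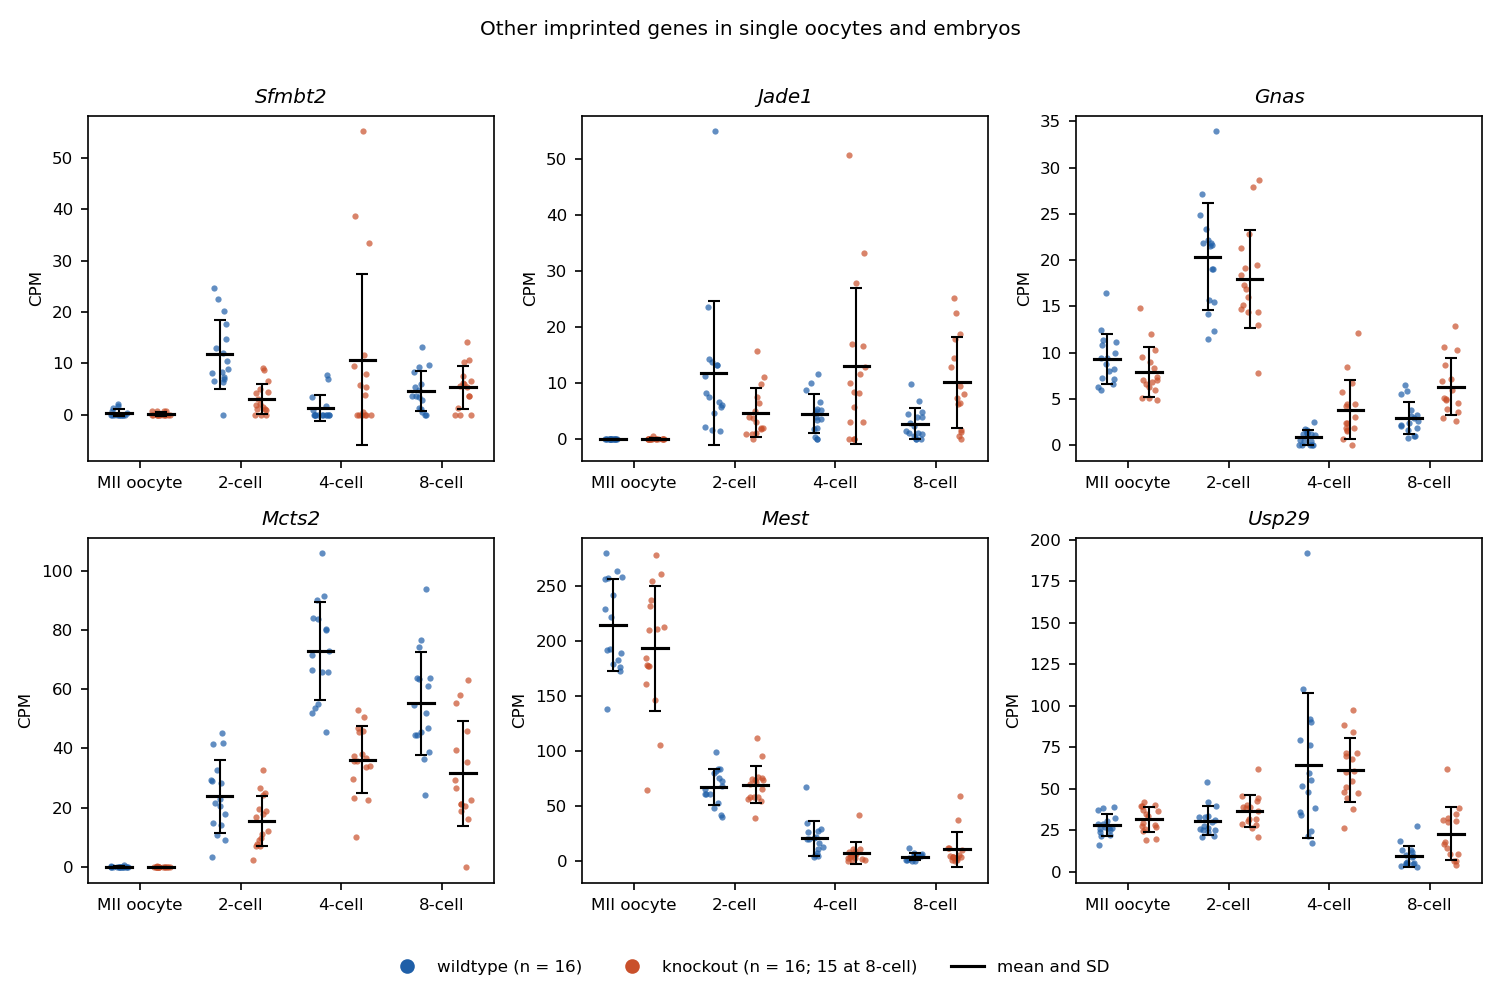
CPM (vertical axis, linear) of Sfmbt2, Jade1, Gnas, Mcts2, Mest and Usp29 in each library, by stage and genotype; points are single oocytes or embryos and black bars are the mean and SD. Sfmbt2 and Jade1 lie lower in knockout than in wildtype 2-cell embryos and reach higher values in knockout 4-cell embryos, and Mcts2 lies lower in knockout 4-cell embryos (medians 36.3 and 72.2).

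Genes that set and keep imprints were read from a list of 18 names, of which 17, 16, 14 and 12 were tested in oocytes and in embryos of 2, 4 and 8 cells. In oocytes 1 of 17 was called, beside 12% of all genes: Zfp57 was higher, a call lost on library totals (adjusted p = 0.082) and with no filter (0.080). In 2-cell embryos 3 of 16 were higher and 1 was lower, beside 7.3% and 10% of all genes, and none of the 4 was called in replicates 9 to 16 alone (adjusted p from 0.25 to 0.81). Zfp57, whose protein reads the methylated hexamer, ran from 103 to 333 CPM (median 218) in wildtype and from 170 to 897 CPM (median 359) in knockout 2-cell embryos, with a log2 fold change of 1.09 (SE 0.24, adjusted p = 0.0020). Nlrp2, a maternal-effect gene, was higher by 0.97 (SE 0.20) and the Polycomb methyltransferase gene Ezh2 by 0.37 (SE 0.12), and its partner Suz12 was lower (-0.37, SE 0.11). Suz12 had -0.80 in replicates 1 to 8 and 0.08 in replicates 9 to 16.

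At the 4-cell stage 2 of 14 tested genes of that list were higher and 2 lower, beside 8.97% and 7.46% of all genes, and none of the 4 was called in either set of replicates alone (adjusted p from 0.086 to 0.39). Dnmt3l, the cofactor that helps set methylation imprints in germ cells, ran from 0 to 9.60 CPM (median 3.54) in wildtype and from 1.58 to 22.1 CPM (median 14.5) in knockout embryos, with a log2 fold change of 1.46 (SE 0.38, adjusted p = 0.0069). Suz12 was higher by 0.46 (SE 0.13). Trim28, the partner of ZFP57, ran from 5.65 to 55.1 CPM (median 21.9) in wildtype and from 4.47 to 28.6 CPM (median 12.5) in knockout embryos, with -0.81 (SE 0.27, adjusted p = 0.038). Setdb1, the histone methyltransferase that TRIM28 recruits, was lower as well (-0.56, SE 0.18, adjusted p = 0.024). With no filter Trim28 (adjusted p = 0.071) and Setdb1 (0.060) were not called. At the 8-cell stage Suz12 (0.95, SE 0.25) and the ubiquitin ligase gene Rlim (0.99, SE 0.28) were higher, 2 of 12 tested beside 8.69% of all genes. Without knockout replicate 7 they had 0.53 and 0.56 and were still called, Rlim was not called with voom weights (adjusted p = 0.093), and neither was called in either set of replicates alone. The medians of the list were 0.04, 0.10, -0.19 and 0.15 at the 4 stages.

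Of 35 genes beside or overlapping imprinted genes 14, 14, 7 and 7 were tested at the 4 stages, and 1, 1, 1 and 0 were called, beside 12%, 17.3%, 16.4% and 11.4% of all genes. Gpr1, the neighbour of Zdbf2, was lower in knockout oocytes (-0.41, SE 0.11) and higher in knockout 2-cell embryos (0.67, SE 0.20), and Snurf made the 4-cell call. At the 8-cell stage, where edgeR called 0 of the 7, none was at an unadjusted p under 0.05 either. Of 15 paralogues of members 4, 6, 7 and 7 were tested, and 0, 2, 2 and 1 were called beside the same all-gene shares. In oocytes, where edgeR called 0 of the 4, 1 was at an unadjusted p under 0.05. In knockout 2-cell embryos Ube3c, a paralogue of Ube3a, was higher by 0.47 (SE 0.15, adjusted p = 0.028), a call lost on library totals (0.062). Jade3, a paralogue of Jade1, was lower (-1.40, SE 0.44, adjusted p = 0.025), a call lost with voom weights (0.15) and with no filter (0.061). In knockout 4-cell embryos Sfmbt1, the paralogue of Sfmbt2, was higher by 1.75 (SE 0.34), with medians of 28.9 and 6.93 CPM in knockout and wildtype, and Nap1l1, a paralogue of Nap1l5, by 0.55 (SE 0.13). Sfmbt1 was also called at the 8-cell stage (3.52, SE 0.79, adjusted p = 0.0050). Knockout replicate 7 held 602 CPM of it, against 3.35 to 21.1 CPM in the other 14 knockout embryos, and without that library Sfmbt1 had 0.57 (SE 0.31, adjusted p = 0.23) and was not called.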

How the data were processed

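Poly(A) RNA of single oocytes and embryos was amplified and sequenced as paired reads of 150 bp. Per the submitters' processing notes, the tools were Trimmomatic 0.32, STAR 2.5.1a and featureCounts 1.5.1, with the mm10 build. The authors deposited estimated counts for each gene, of which 30.56% of those above 0 are not whole. Strand setting and the handling of multi-mapping reads are not given in the sources used here. A read shared by copies or overlapping genes may therefore be split, and the series text and the protocol name different kits.

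Estimated counts were rounded, and CPM is over the library total. The genotype effect of each stage was fitted with edgeR 4.0.16 (quasi-likelihood F test, robust, TMM factors, filterByExpr) in R 4.3.3 on all genes passing the filter, with Benjamini-Hochberg adjustment over them and a threshold of 0.05. Stage changes within a genotype and interactions came from fits of 4 groups of adjacent stages. Alternatives used DESeq2 1.42.0, limma 3.58.1 (voom with quality weights), RLE factors, library totals, no filter, 10 CPM in 16 libraries (15 at the 8-cell stage), the replicate block, replicates 1 to 8 or 9 to 16, and fits without the libraries that stood apart. The fits were tested on simulated data. No pair of libraries within a group lay within sampling noise (chi-square per gene at least 4.75). Members are named with values where they were called in a genotype fit or an interaction, were among the 12 highest wildtype means, or were among the 6 largest called wildtype changes each way of a step. Genes of the other lists are named, at most 4 per list and stage, by smallest p among those called. The members and lists were chosen with earlier results of these data known. Gene positions are those of the deposited table, and promoters are from RefSeq.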

Additional observations from a re-analysis of the deposited data

Results flagged for a closer look

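For 7 of 22 tested members the genotype effect differed between 2-cell and 4-cell embryos by the interaction test of edgeR. Over all genes 15.5% of 10766 were called. The log2 differences, 4-cell minus 2-cell, were 4.95 for Sfmbt2, 2.74 for Jade1, 2.30 for Snhg14, 2.21 for Gnas, 2.07 for Snrpn, 1.15 for Ube3a and -1.57 for Mest. For 3 of 20 tested members the genotype effect differed between 4-cell and 8-cell embryos, where 2.73% of 8822 genes were called. The differences were 2.99 for Mest, -2.01 for Snhg14 and -2.15 for Snrpn. Both tests use the same 4-cell libraries. The value of Mest in the second test was no longer called without knockout 8-cell replicate 7 (2.14, adjusted p = 0.081). The other 9 values kept their call without the doubted library of their fit.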

How the results depend on the processing

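No member called in a comparison changed direction under any alternative run. Counts of called members that moved by more than 1.5 times are given first. In oocytes 1 member was called and 0 in replicates 1 to 8 and in replicates 9 to 16. Over all genes the higher and lower calls were 289 and 369 of 7719 in replicates 1 to 8, and 51 and 110 of 7539 in replicates 9 to 16. In 2-cell embryos 3 were called, 1 with the stricter filter, 6 in replicates 1 to 8 and 0 in replicates 9 to 16. In the same order the higher and lower calls over all genes were 637 and 875 of 8728, 593 and 726 of 6692, 597 and 778 of 8682, and 37 and 103 of 8584. In 4-cell embryos 4 were called and 8 with no filter, where 1482 higher and 1188 lower of 26275 genes were called. In 8-cell embryos 1 was called, 2 with DESeq2 or RLE factors, 3 with voom weights or without knockout replicate 7, 5 with no filter, and 0 in either set of replicates. The all-gene calls of these 8-cell fits are given below. With the stricter filter 5 wildtype and 4 knockout changes were called from oocyte to 2-cell embryo. Over all genes that filter called 2052 higher and 1508 lower of 7376 in wildtype and 1989 and 1438 in knockout. Without knockout oocyte replicate 15 and knockout 2-cell replicate 13, 1 interaction was called there, beside 375 higher and 352 lower of 10302 genes. Fits of 8 libraries a group have fewer samples, and the cause of the moves was not tested. Smaller moves in 2-cell embryos were to 2 with voom weights, with no filter and without knockout replicate 13. Over all genes these fits called 691 and 854 of 8728, 942 and 1204 of 31322, and 713 and 939 of 8817. In 4-cell embryos the count moved to 5 (DESeq2, voom weights) or 3 (stricter filter, either set of replicates). All-gene calls were 836 and 665 of 7478 (DESeq2), 862 and 763 (voom weights), and 605 and 522 of 5834 (stricter filter). Those of the replicate sets are given below. Knockout changes from 2-cell to 4-cell embryo moved from 18 to 15 with RLE factors and 14 with the stricter filter. Over all genes 3030 and 4971 of 10766 and 2984 and 3501 of 8568 were called there. The other stage changes and interactions moved by at most 4 calls.

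The replicate block called 1, 2, 4 and 0 members at the 4 stages. Over all genes its higher and lower calls were 272 and 489 of 7680 in oocytes and 497 and 593 of 8728 in 2-cell embryos. They were 626 and 498 of 7478 in 4-cell and 70 and 47 of 7194 in 8-cell embryos. The block ended the calls of Ube3a at the 2-cell stage (adjusted p = 0.056) and Usp29 at the 8-cell stage (0.07). Among the other lists it ended those of Zfp57 in oocytes and of Suz12, Jade3 and Ube3c at the 2-cell stage. It also ended those of Setdb1 at the 4-cell stage and of Suz12, Rlim and Sfmbt1 at the 8-cell stage. Same-numbered libraries deviated together (correlation over 0.1) in 5, 3, 4 and 4 of 16, 16, 16 and 15 pairs, with median correlations of 0.032, -0.048, 0.036 and 0.026. Differently numbered libraries were not compared, so these values cannot settle whether the numbers mark a pairing.

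Over all genes the higher and lower calls at the 8-cell stage were 627 and 199, and 444 and 375 with DESeq2, 680 and 250 with RLE factors, 609 and 522 with voom weights, 2311 and 584 with no filter (25985 genes tested), 507 and 396 without knockout replicate 7, 70 and 47 with the block, 1 and 0 in replicates 1 to 8 and 77 and 34 in replicates 9 to 16. In oocytes 405 and 514 became 741 and 838 with voom weights, 759 and 758 without knockout replicate 15 and 51 and 110 in replicates 9 to 16. In 2-cell embryos 637 and 875 became 597 and 778 in replicates 1 to 8 and 37 and 103 in replicates 9 to 16. In 4-cell embryos 671 and 558 became 1482 and 1188 with no filter, 77 and 61 in replicates 1 to 8 and 258 and 154 in replicates 9 to 16. Interactions from oocyte to 2-cell embryo, 211 and 210, became 165 and 263 with RLE factors and 375 and 352 without knockout oocyte replicate 15 and knockout 2-cell replicate 13. Those from 4-cell to 8-cell, 188 and 53, became 401 and 83 with RLE factors, 111 and 35 on library totals and 85 and 81 without knockout replicate 7, and knockout changes there, 715 and 342, became 570 and 589 without it.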

Other observations

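Phlda2, a maternally expressed gene that restrains placental growth, did not pass the filter at any stage and is singled out here after its values were seen. It was at 0 in 10 of 16 wildtype and 1 of 16 knockout 4-cell embryos, with medians of 0 and 1.41 CPM and highest values of 1.17 and 6.08 CPM. In the edgeR fit with no filter its log2 fold change was 2.64 (SE 0.68, adjusted p = 0.014). Meg3, a maternally expressed long noncoding RNA, was at 0 in all 16 wildtype and all 16 knockout 4-cell embryos, and had medians of 0.841 and 1.65 CPM in wildtype and knockout 2-cell embryos. These levels rest on a few counts in each library.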
